A study of Drosophila melanogaster with 29 samples.

Results

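The trypsin gene cluster of *Drosophila melanogaster* is a run of neighbouring genes that encode trypsins, and 10 of its genes with Greek-letter names are described here: *alphaTry*, *betaTry*, *gammaTry*, *deltaTry*, *epsilonTry*, *zetaTry*, *etaTry*, *thetaTry*, *iotaTry* and *lambdaTry*. Members were taken by gene symbol, and every probe set annotated with a single member's symbol was used. Of the 10 named genes, 8 had a probe set, 1 each, among the 10843 genes that the Affymetrix annotation names singly on this array. No probe set was matched to *gammaTry* or *deltaTry*, nor to *CG30025* and *CG30031*, the unnamed trypsin genes of the same locus, so these 4 genes have no value here.

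Whole newly eclosed flies of 5 laboratory strains were profiled on 29 arrays, 15 of males and 14 of virgin females. The strains were France (the Kerbiniou stock), Antigua, Glasgow and Cambridge (both Oregon-R stocks) and Hikone from Japan, and no treatment was given. The labels describe Hikone, too, as an Oregon-R stock, whereas the authors list it apart from their Oregon-R stocks. Each strain had 3 male and 3 female arrays, except Hikone females with 2, and RNA was extracted separately for each. Flies were reared at 25 °C and taken 0 to 6 h after eclosion according to their labels, apart from France female replicate 3, whose label reads 3 to 5 days. Between that array and the mean of the other France females the members differed by -0.25 to 0.84 on the log2 scale, most in *etaTry*.

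Trypsins are serine endopeptidases that cut proteins after lysine or arginine. In flies they are made as inactive zymogens by enterocytes of the midgut and secreted into the gut lumen, where an activated trypsin digests dietary protein and can activate other zymogens. The amount of digestive protease RNA in the midgut is known to follow feeding and nutrient state. The gut is 1 tissue of many in a whole fly, and in such bulk samples fewer midgut cells cannot be told apart from less trypsin RNA per cell.

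In the gene order of RefSeq (Release 6 assembly), the locus on chromosome arm 2R runs *lambdaTry*, *kappaTry*, *zetaTry*, *etaTry*, *thetaTry*, *alphaTry*, *epsilonTry*, *betaTry*, *gammaTry*, *CG30031*, *CG30025*, *deltaTry*, *CG13202* and *iotaTry*. *kappaTry* lies inside the run but is not among the 10 members, and its values are given apart. Values are log2 expression after GCRMA, a method that corrects each probe for background binding by its GC content. It equalises the distributions of probe intensities across arrays before probe sets are summarised. Medians of the probe set values still ran from 4.3 to 4.605 between arrays. Levels are compared between groups within 1 probe set and never between probe sets, since each binds with its own strength. Whether a probe set also binds transcripts of paralogous trypsins was not tested.

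The labels of the arrays were checked first. *SP*, which encodes the sex peptide of the accessory gland, read 10.64 to 11.91 in males and 1.07 to 1.26 in females. *Yp1*, a yolk protein gene, read 12.71 to 13.90 in females and 2.06 to 10.85 in males, the highest male value being that of Cambridge male replicate 1. Cambridge female replicate 3 stood apart from the other Cambridge females. Over all probe sets its mean correlation with its own group was 0.965, against 0.9828 with Hikone females, while Cambridge female replicate 1 correlated at 0.9758 with its own group and 0.9819 with Glasgow females. *Cyp12d1-d*, a cytochrome P450 gene high in Cambridge flies, read 7.08 in replicate 3, like 7.28 and 7.57 in the other Cambridge females, against group means of 3.15 to 3.33 in the remaining females. This gene was picked after its values were seen. The model below called 200 probe sets higher and 277 lower in Cambridge males. Of the 200, replicates 1, 2 and 3 of Cambridge females were above the mean of other female groups for 190, 192 and 178. Of the 277, they were below it for 239, 223 and 189, so replicate 3 followed the Cambridge males least. The cause of the array's distance was not tested, and the test results for trypsins below are given with and without it. That distance was seen in these same values, trypsins included, so calls made without the array partly follow from leaving it out.

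The clearest feature of the members was the spread of Cambridge females. *betaTry* read 3.24, 2.51 and 11.49 in Cambridge females, against 9.07 to 12.76 in the 11 other female arrays. In replicate 3 it was thus 8.62 (log2) or 392-fold above the mean of replicates 1 and 2, the second-largest gap of all 13966 probe sets tested. Replicate 3 fell among the France, Antigua, Glasgow and Hikone females, while the other Cambridge females lay far below every one of them.

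Most of the remaining members were split in the same way. *alphaTry* read 7.98, 7.74 and 12.39 in Cambridge females, against 9.26 to 12.30 for the females outside Cambridge. *epsilonTry* read 5.94, 7.29 and 11.88, against 7.84 to 12.19. *lambdaTry* read 2.89, 3.96 and 8.58, against 6.18 to 8.61. In all 3 genes, replicates 1 and 2 were the 2 lowest of the 29 arrays. *thetaTry* read 3.33, 3.53 and 8.29 in Cambridge females, against 4.17 to 8.38 in the other strains. *iotaTry* read 4.92, 4.0 and 7.06, against 5.29 to 7.30. *etaTry* read 2.99, 3.09 and 5.19, against 3.16 to 6.23. These 3 genes, too, had their 2 lowest arrays in Cambridge females. *zetaTry* was the exception, with 5.24, 5.74 and 6.51 in Cambridge females, against 3.66 to 6.85 in the other females. Its Cambridge values lay inside the range of the other strains, and its lowest arrays were those of Glasgow females.

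Replicate 3 exceeded the mean of the other female groups for all 8 members, and for 7 of the 8 it lay within the range of the 11 other female arrays. Its *alphaTry* value of 12.39 was above all of them. The gap to replicates 1 and 2 ranged from 1.02 (*zetaTry*) to 8.62, with a median of 4.70 (log2). Over all probe sets the median gap was -0.035, and 516 of 13966 probe sets were 1 or more (log2) higher in replicate 3, among them all 8 trypsins. Of the 183 probe sets that were 1 or more lower, none was a member. A difference between arrays of a single group has no test, and these gaps are a description. Values near 3 lie at the low end of the scale, where the method of background correction sets the level, so a fold computed there depends on it.

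**Figure D1:**
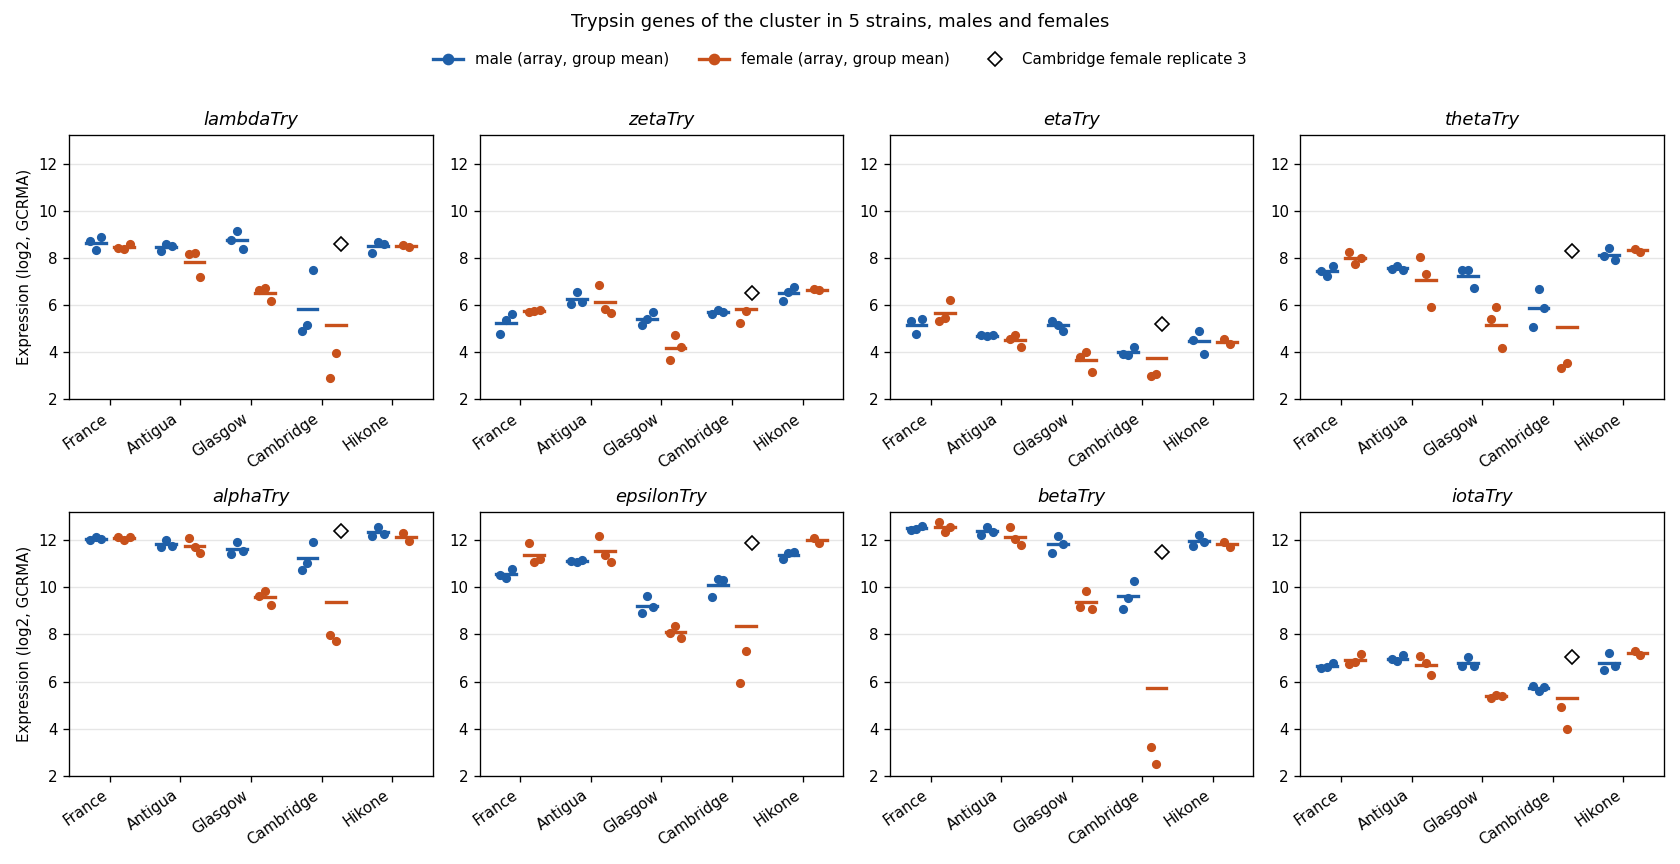
Expression (log2, GCRMA) of the 8 trypsin genes by strain, with males in blue to the left of females in orange. Points are arrays, bars are group means, and the open diamond is Cambridge female replicate 3. For *betaTry* the diamond is at 11.49 while the other Cambridge females are at 3.24 and 2.51, and for *zetaTry* the Glasgow females (3.66, 4.72 and 4.21) lie lowest.

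Along the locus, genes on both sides of the unmatched stretch took part. *kappaTry*, between *lambdaTry* and *zetaTry*, read 4.06, 4.32 and 6.77 in Cambridge females, against group means of 4.71 to 7.0 for the females outside Cambridge. *CG13202*, the gene just before *iotaTry* in the order, read 2.48, 2.53 and 2.48 in the same arrays, and *sha*, which forms wing hairs and flanks the cluster, read 3.02, 3.01 and 2.99. Neither of these differed by more than 0.05 between the Cambridge females, and both lay near the low end of the scale in all females.

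**Figure D2:**
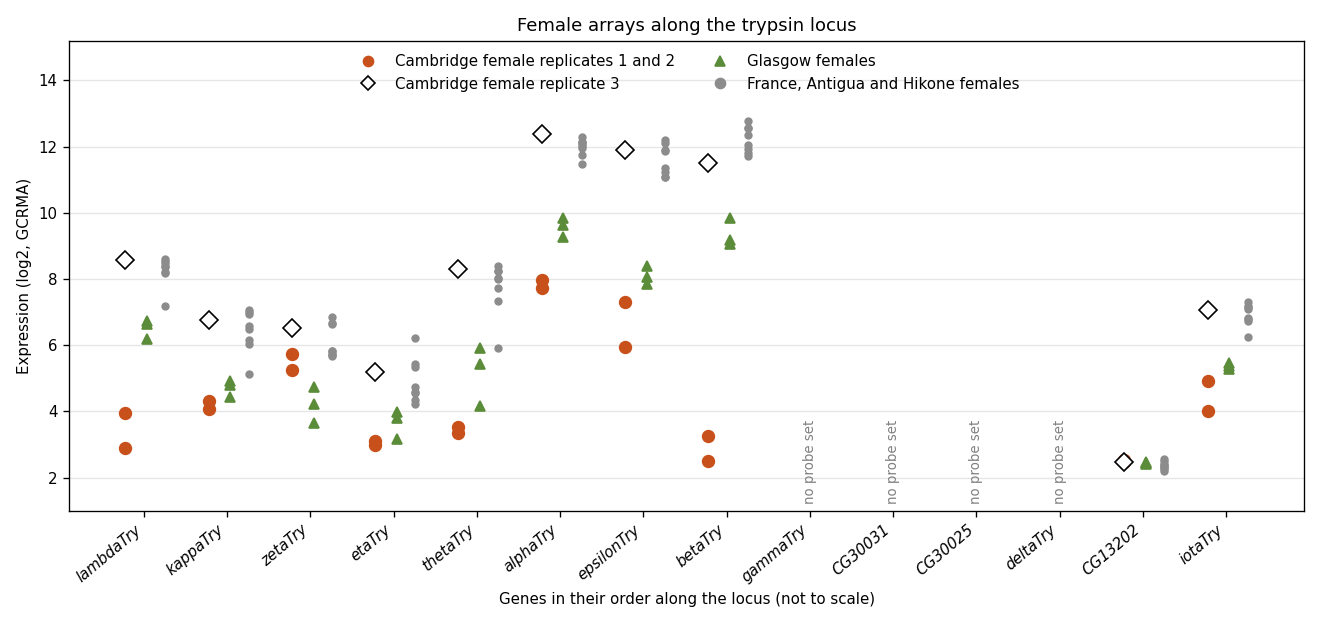
Expression (log2, GCRMA) in female arrays for the genes of the locus in their order along the chromosome arm, not drawn to scale. Orange points are Cambridge female replicates 1 and 2, the diamond is replicate 3, green triangles are Glasgow females and grey points are France, Antigua and Hikone females. *CG13202* is near 2.5 in every Cambridge female, while the trypsin genes around it are separated by array.

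To ask whether males and females differed, a single linear model with a mean for each strain and sex was fitted with limma to all 13966 probe sets, and a probe set was called at a Bonferroni-adjusted p below 0.01. Averaged over strains, with all arrays no member was called, against 46.8% of all probe sets. At an unadjusted p below 0.05, 2 of 8 members passed (*alphaTry* and *betaTry*), against 85.8% of all probe sets. *betaTry* averaged 11.66 in males and 10.32 in females, a difference of 1.33 ± 0.59 (SE). *alphaTry* averaged 11.82 in males and 10.99 in females (0.83 ± 0.32), and all 8 differences were above 0, with a median of 0.41 against -0.08 over all probe sets. Without Cambridge female replicate 3, both genes were called higher in males, at 1.91 ± 0.13 for *betaTry* (limma, Bonferroni-adjusted p = 4.19e-08) and 1.13 ± 0.11 for *alphaTry* (adjusted p = 1.62e-05). In that fit 47.8% of probe sets were called.

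These averages hid unlike strains. In Glasgow all 3 males were above all 3 females for each of the 8 members, whereas 37.7% of all probe sets had such a separation in that direction. *betaTry* read 11.47, 12.16 and 11.84 in Glasgow males, against 9.17, 9.84 and 9.07 in Glasgow females. *alphaTry* read 11.43, 11.94 and 11.56 in the males, against 9.63, 9.83 and 9.26 in the females. The lowest male lay well above the highest female in both genes. *lambdaTry* read 8.76, 9.16 and 8.37 in Glasgow males, against 6.64, 6.72 and 6.18 in Glasgow females. *thetaTry* read 7.49, 7.49 and 6.74 in the males, against 5.43, 5.90 and 4.17 in the females. Here the gap between the nearest arrays was smaller for *thetaTry*, where replicate 3 was the lowest of both sexes.

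The fitted Glasgow differences, males minus females, ranged from 1.13 (*epsilonTry*) to 2.46 (*betaTry*), with a median of 1.78 against 0.04 over all probe sets. No member was called with all arrays, against 32.9% of probe sets, and 6 of 8 had an unadjusted p below 0.05, against 59.5%. When that array was left out the differences were the same but their errors smaller, and *betaTry* (2.46 ± 0.27, adjusted p = 0.000244) and *alphaTry* (2.07 ± 0.23, adjusted p = 0.000209) were called, against 34.6% of probe sets. The other 6 members had adjusted p of 0.0286 (*iotaTry*), 0.159 (*etaTry*) or 1.

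In Cambridge, the sex difference turned on the array that stands apart. *betaTry* read 9.10, 9.54 and 10.27 in Cambridge males, against 3.24, 2.51 and 11.49 in Cambridge females. *alphaTry* read 10.73, 11.04 and 11.92 in the males, against 7.98, 7.74 and 12.39 in the females. For 7 members every Cambridge male lay between the low and the high Cambridge females, so that no member separated the sexes. With all arrays no member was called, against 25.7% of probe sets, and 2 of 8 passed an unadjusted p below 0.05, against 55.3%. Without replicate 3, *betaTry* (6.76 ± 0.30, adjusted p = 2.59e-11), *alphaTry* (3.37 ± 0.25, adjusted p = 3.42e-07) and *epsilonTry* (3.48 ± 0.35, adjusted p = 5.44e-05) were called higher in males, against 26.6% of probe sets.

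France, Antigua and Hikone gave no call in either fit, with 22.5%, 22.1% and 22.5% of probe sets called there in the fit to all arrays. In the fit to all arrays no member reached an unadjusted p below 0.05 in these strains, against 69.3%, 74.9% and 67.5% of probe sets. Without Cambridge female replicate 3, *epsilonTry* in France had an unadjusted p of 0.0159 (-0.82 ± 0.31). *epsilonTry* read 10.52, 10.39 and 10.78 in France males, against 11.86, 11.08 and 11.22 in France females, and 11.19, 11.45 and 11.51 in Hikone males, against 12.10 and 11.89 in Hikone females. In both strains all its males were below all females, the direction opposite to Glasgow. Such a separation was also seen for *zetaTry* and *thetaTry* in France, where 48.7% of all probe sets had it, and for no other member in Hikone, where 57.9% had it. In Antigua only *lambdaTry* separated the sexes, with 8.28, 8.57 and 8.49 in males, against 8.17, 8.20 and 7.17 in females, where 21.6% of probe sets had males above females.

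Whether the sex difference depended on strain was asked with an interaction term. With all arrays no member was called, against 2.56% of probe sets, and 2 of 8 had an unadjusted p below 0.05, against 55.4%. With the array left out, *betaTry* (adjusted p = 1.71e-08), *alphaTry* (adjusted p = 5.08e-05) and *epsilonTry* (adjusted p = 0.000858) were called, 3 of 8 members against 3.01% of probe sets.

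The next question was whether strains differed within females. With all arrays no member was called by the F test over the 5 female groups, against 6.53% of probe sets, although 8 of 8 had an unadjusted p below 0.05, against 69.3%. In the fit without it, 7 of 8 members were called, against 9.8% of probe sets. *betaTry* had the smallest adjusted p (1.60e-13), and *zetaTry*, which was not called, had 0.0228. The same held for the F test averaged over sex, with 0 of 8 members called from all arrays, against 15.8% of probe sets, and 8 of 8 without the array, against 16.2%. With all arrays, 8 of 8 had an unadjusted p below 0.05 in that test, against 86.4%.

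In Cambridge females *betaTry* averaged 5.75 ± 4.99 (SD, n = 3), against a mean of 11.47 over the other female groups. The difference of -5.72 ± 1.04 (SE) had an adjusted p of 0.262 with all arrays. None of the 8 members was called in that fit, against 0.723% of probe sets, and 7 of 8 had an unadjusted p below 0.05, against 38.1%. Without replicate 3 the Cambridge mean was 2.88 and the difference -8.59 ± 0.26, with an adjusted p of 9.98e-15. Leaving it out dropped the only high *betaTry* value of the group and most of the spread, with arrays near the low end left. In that fit 6 members were lower in Cambridge females and 1.36% of all probe sets were called in that direction. The others were *lambdaTry* (-4.41 ± 0.43, adjusted p = 4.01e-05), *epsilonTry* (-4.14 ± 0.29, 1.37e-07), *thetaTry* (-3.71 ± 0.43, 0.000513), *alphaTry* (-3.53 ± 0.21, 6.82e-09) and *iotaTry* (-2.10 ± 0.20, 2.87e-05). *etaTry* (-1.53 ± 0.24, adjusted p = 0.0495) and *zetaTry* (-0.19 ± 0.27, 95% confidence interval -0.75 to 0.37) were not called.

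Glasgow females gave the single member called against the other strains with all arrays. *zetaTry* read 3.66, 4.72 and 4.21 in Glasgow females, against 5.24 to 6.85 for the females outside Glasgow, with no overlap. Its mean was 4.20 ± 0.53 (SD, n = 3) in Glasgow females and 6.09 over the other groups, a difference of -1.89 ± 0.25 (SE) with an adjusted p of 0.00354. Of all probe sets, 2.96% were called lower in Glasgow females and 5.02% lay below all other females without overlap. The call was lost when either Hikone female, Glasgow female replicate 1 or Glasgow female replicate 3 was left out (adjusted p of 0.0110 to 0.191), and when each sex was fitted on its own (adjusted p = 1).

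*epsilonTry* read 8.05, 8.38 and 7.84 in Glasgow females, against 11.08 to 12.19 in France, Antigua and Hikone females. *alphaTry* read 9.63, 9.83 and 9.26, against 11.46 to 12.30 in those 3 strains. *betaTry* read 9.17, 9.84 and 9.07, against 11.72 to 12.76. In all 3 genes the Glasgow females were below every female of those strains and above the low Cambridge females. With all arrays 6 of 8 members had an unadjusted p below 0.05 in this contrast, against 38.2% of probe sets. With Cambridge female replicate 3 left out, *epsilonTry* (-2.30 ± 0.25, adjusted p = 0.000246), *zetaTry* (-1.81 ± 0.23, adjusted p = 0.00224) and *alphaTry* (-1.39 ± 0.18, adjusted p = 0.00399) were called lower in Glasgow females, against 3.54% of probe sets. The mean over the other strains includes the low Cambridge females there, which for *betaTry* left a Glasgow difference of only -0.49 ± 0.22.

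France, Antigua and Hikone females were called higher than the others only without that array. *betaTry* (3.51 ± 0.22 in France, 2.99 ± 0.22 in Antigua and 2.58 ± 0.26 in Hikone females), *alphaTry* and *epsilonTry* were called in all 3 strains, and *etaTry* in France alone (1.76 ± 0.21, adjusted p = 0.000686). When France female replicate 3, the array labelled as older, and Cambridge male replicate 1 were left out as well, 2 of the 4 France calls were lost, *etaTry* (1.48, adjusted p = 0.0415) and *epsilonTry* (1.91, adjusted p = 0.0486). Of all probe sets, 3.98%, 2.22% and 1.2% were called in either direction in France, Antigua and Hikone females. Each of these contrasts contains the Cambridge and Glasgow females in its mean of the other strains, so that the calls are not separate observations. *etaTry* read 5.34, 5.44 and 6.23 in France females, against 2.99 to 5.19 in all other females, the value of 6.23 being that of the older array. It was the only member that separated France females upward from all others, as did 4.3% of probe sets.

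Among males the differences were smaller. With all arrays no member was called by the F test over male groups, against 9.67% of probe sets, and 3 of 8 had an unadjusted p below 0.05, against 76.3%. With Cambridge female replicate 3 left out, *betaTry* was called (adjusted p = 9.62e-05), against 10% of probe sets. That array enters the male tests only through the error that all groups share. In a fit of the males alone no member was called by the F test, against 3.41% of probe sets.

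Cambridge males were the low group for several members. *betaTry* read 9.10, 9.54 and 10.27 in Cambridge males, against 11.47 to 12.61 in males of the other strains. *lambdaTry* read 4.89, 5.15 and 7.50, against 8.21 to 9.16. *iotaTry* read 5.80, 5.62 and 5.76, against 6.50 to 7.2. These genes and *thetaTry* had all 3 Cambridge males below all 12 other males, 4 of 8 members against 4.37% of probe sets. The *iotaTry* arrays were close together, while *lambdaTry* varied by 2.61 (log2) within Cambridge males. The model gave differences from the other males of -2.53 ± 1.02 for *betaTry* and -2.74 ± 0.70 for *lambdaTry* with all arrays. None of the 8 members was called, against 3.42% of probe sets, 5 of 8 members had an unadjusted p below 0.05, against 57.3% of probe sets, and all 8 differences were below 0 (median -0.96, against 0.10 over all probe sets).

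Without Cambridge female replicate 3 the same differences had errors of 0.21 and 0.36 and both were called (adjusted p = 3.12e-06 for *betaTry* and 0.00444 for *lambdaTry*), against 3.1% of probe sets called lower. Cambridge male replicate 1, whose *Yp1* value was 10.85, was the lowest Cambridge male for *betaTry*, *alphaTry*, *epsilonTry*, *zetaTry*, *thetaTry* and *lambdaTry*. When it was left out as well, together with the France female labelled as older, *betaTry* was still called at -2.26 (adjusted p = 0.000316) and *lambdaTry*, also at -2.26, was not (adjusted p = 0.316). A limma fit of the males alone called *betaTry* (adjusted p = 0.000547) but not *lambdaTry* (adjusted p = 0.384), against 1.98% of probe sets. The neighbour *kappaTry*, at 4.5, 4.67 and 6.12 in Cambridge males, against group means of 6.53 to 7.18 for the other males, was called lower without Cambridge female replicate 3 (-1.80, adjusted p = 0.00611).

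Hikone males lay at the other end for some members. *alphaTry* read 12.19, 12.55 and 12.24 in Hikone males, against 10.73 to 12.12 in males of the other strains. *thetaTry* read 8.09, 8.41 and 7.89, against 5.06 to 7.66. With *epsilonTry*, 3 of 8 members had all Hikone males above all other males, against 2.08% of probe sets. None of the 8 members was called in either fit, against 1.93% of probe sets with all arrays (differences of 0.64 to 1.13 in these 3 genes), and 1 of 8 (*zetaTry*) had an unadjusted p below 0.05 with all arrays, against 37.8%.

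**Figure D3:**
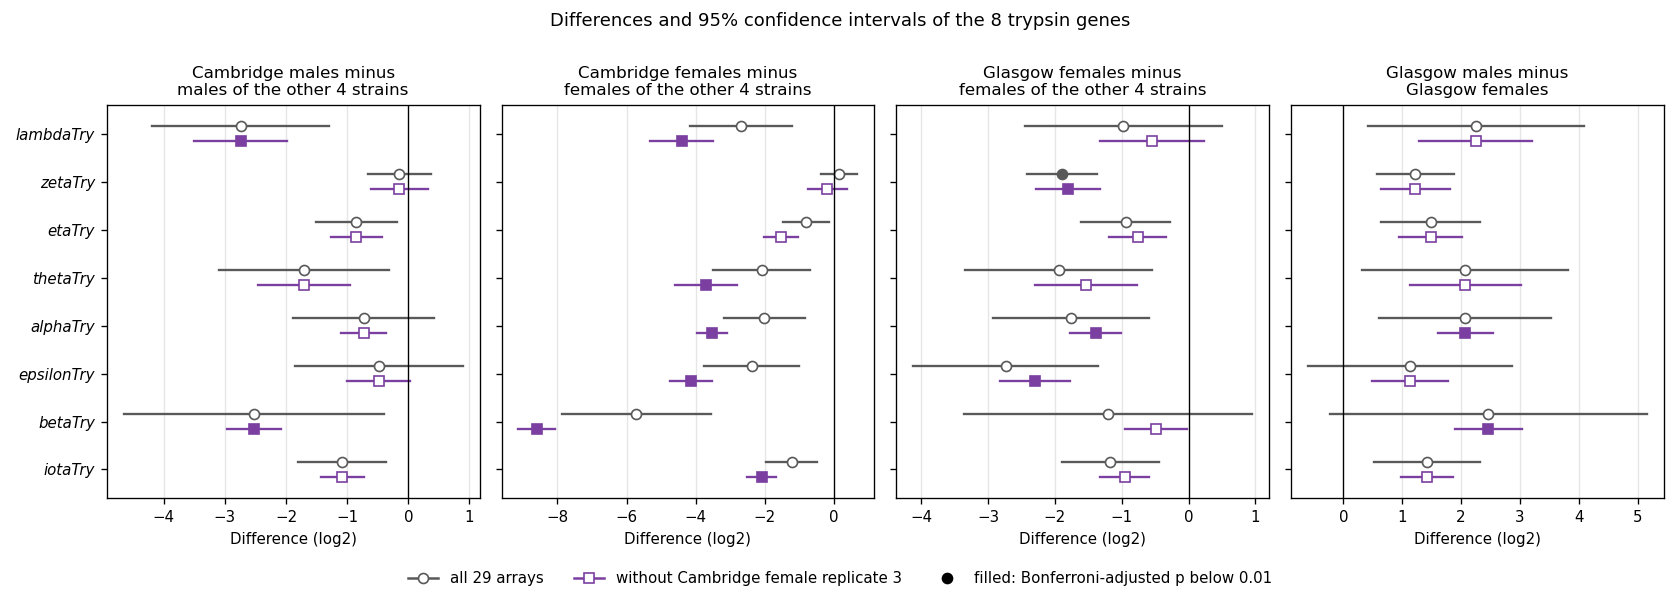
Differences (log2) with 95% confidence intervals for 4 contrasts, with genes in locus order from top to bottom. Grey circles come from all 29 arrays and purple squares from the fit without Cambridge female replicate 3, and filled symbols have a Bonferroni-adjusted p below 0.01. Only *zetaTry* in Glasgow females is filled in grey, and the interval for *betaTry* in Cambridge males narrows around the same -2.53.

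Glasgow and Cambridge, which the authors list as Oregon-R stocks, were compared directly. In females, *betaTry* averaged 9.36 ± 0.42 in Glasgow and 5.75 ± 4.99 in Cambridge (SD, n = 3 each), a difference of 3.61 ± 1.29 (SE) that was not called. In males it averaged 11.82 ± 0.35 in Glasgow and 9.64 ± 0.59 in Cambridge, a difference of 2.19 ± 1.29. With all arrays no member was called in either sex, against 1.82% of probe sets in females and 2.29% in males, and 2 of 8 in females and 3 of 8 in males had an unadjusted p below 0.05, against 28.7% and 28% of probe sets. In the fit without the high Cambridge female *betaTry* was called in females (6.49 ± 0.30, adjusted p = 5.73e-11) and in males (2.19 ± 0.27, adjusted p = 0.00159), against 1.67% and 2.86% of probe sets. In the males its adjusted p was 0.0387 when Cambridge male replicate 1 and the older France female were left out too. It was 0.0306 in a limma fit of the males alone. *zetaTry* ran the other way in females, with 4.20 ± 0.53 in Glasgow and 5.83 ± 0.64 in Cambridge (-1.63 ± 0.31, adjusted p = 0.563 with all arrays).

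In the order of the 10 group means, Cambridge females were lowest for 5 members and Glasgow females for 3 (*epsilonTry*, *zetaTry* and *etaTry*). The highest group was Hikone for 5 members, France females for *betaTry* and *etaTry*, and Glasgow males for *lambdaTry*. The span of group means was largest for *betaTry*, at 6.81, and smallest for *iotaTry*, at 1.89. Without Cambridge female replicate 3, Cambridge females were lowest for 7 members and Glasgow females for *zetaTry* alone, and the span of *betaTry* was 9.68. Most neighbours in these orders did not differ beyond their arrays: of 9 neighbouring pairs of groups, 6 to 8 overlapped for each gene, and 4 to 8 without that array.

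The members moved together across arrays, with *zetaTry* and *etaTry* the least alike. After the mean of each sex was taken off, Pearson's r over the 29 arrays ranged from 0.22 to 0.93 for the 28 pairs of members, with a median of 0.81. Without the Cambridge females it ranged from 0.17 to 0.90 over 26 arrays, with a median of 0.74. The arrays share strains and were normalised together, so r describes these samples and no test was made.

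The non-member genes most like each member were other digestive enzymes in several cases. *alphaTry*, *thetaTry* and *iotaTry* each had *Jon65Aiii*, a serine protease of the Jonah family, as their closest gene (r = 0.98, 0.95 and 0.93 over 29 arrays). *epsilonTry* was closest to *Jon74E*, another Jonah protease (r = 0.98), and *alphaTry* was next like *Jon65Aiv* (0.98) and then *CG11911* (0.96). *betaTry* was most like *CG10472* (0.96), *Bace*, an aspartic protease (0.96), and *CG7542* (0.95). *lambdaTry* was most like *CG10650*, *CG10472* and *CG9568* (0.97 each), and *epsilonTry* next like *CG12374* (0.95) and *CG18404* (0.94). *etaTry* was most like *CG13321* (0.94), *CG34176* (0.94) and *CG5399* (0.93). The lists of *thetaTry* and *iotaTry* were completed by *CG3734* for both (0.95 and 0.93), *CG8952* for *thetaTry* (0.94) and *CG34324* for *iotaTry* (0.93). *zetaTry* had no gene above 0.87, with *LysC*, a lysozyme gene, *CG16799* and *snu* closest. Without Cambridge females the r of these 24 pairs was 0.86 to 0.98.

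Other digestive genes were read from the same arrays. Of 14 measured Jonah proteases, 13 were 1 or more (log2) higher in Cambridge female replicate 3 than in the mean of the others, with a median gap of 4.53. *Jon65Aiv* read 7.26, 5.81 and 12.45 in the Cambridge females, and *Jon66Cii*, the exception, read 3.40, 3.39 and 3.47. Of 32 genes for carbohydrate and lipid digestion, 20 were 1 or more higher (median 1.45), among them the maltase gene *Mal-A1* at 2.55, 4.93 and 9.67. Of 7 other gut serine proteases, 3 were, with *yip7* at 8.98, 8.56 and 13.09. One probe set of that last list, read as *Ser4*, is also that of the Jonah gene *Jon25Bi*. No gene of these 3 lists was 1 or more lower.

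By the F test over female groups, 1 of 14 Jonah proteases was called with all arrays, *Jon65Aii* (adjusted p = 1.07e-07), and 10 of 14 without Cambridge female replicate 3, where 6.53% and 9.8% of all probe sets were called. Of the genes for carbohydrate and lipid digestion, 6 of 32 and 14 of 32 were called, and of the other gut serine proteases, 2 of 7 and 4 of 7. Over male groups the counts were 2 and 6 of 14 Jonah proteases, 8 and 18 of 32 genes for carbohydrate and lipid digestion, and 1 and 2 of 7 others, against 9.67% and 10% of all probe sets. With all arrays, the called genes of these lists included *LysD* (adjusted p = 1.00e-08 in females), *LManIII* (1.53e-07 in males), *LysB* (1.66e-07 in females) and *Mal-A4* (7.80e-07 in males), and among proteases, beside *Jon65Aii* (4.25e-07 in males), *Jon25Bii* (0.00113 in males), *Ser12* (2.01e-17 in females) and *Ser6* (1.08e-06 in males). *Ser12* was high in France females, with a mean of 7.45 against 3.38 to 3.60 in other females. It was not called among male groups, and whether its RNA came from the gut was not tested. *LysD*, a lysozyme gene, averaged 3.35 in Glasgow females, below the low Cambridge females at 8.83 and 9.45, whereas *alphaTry*, *betaTry* and *epsilonTry* were lowest in those Cambridge females. *LysB*, *LysC*, *LysD* and *LysE* differed alike in Glasgow females, by -5.79 to -7.04 without Cambridge female replicate 3. Whether these lysozyme probe sets bind each other's transcripts was not tested, so they may not count as separate genes.

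RNA of genes known to govern midgut genes was read in the same whole flies. Of 11 measured regulators, none was 1 or more apart between Cambridge female replicate 3 and the others, with gaps of -0.55 to 0.35. Few of all 13966 probe sets were that far apart (516 higher and 183 lower in replicate 3), so this count says little about the regulators. *Hnf4*, a nuclear receptor of lipid metabolism, read 9.06, 8.82 and 9.12, and *cad*, a homeobox gene of the gut, read 11.08, 10.80 and 10.46. Without Cambridge female replicate 3, both *cad* probe sets were called higher in Glasgow females than males (males minus females -3.41 and -2.48). How much of the regulators' RNA came from the gut was not tested. *GATAe*, which encodes a midgut GATA factor, was near the low end of the scale at 2.36, 2.33 and 2.44. Among the regulators only *daw*, an activin-like ligand, was called among female strains (adjusted p = 0.00185 with all arrays).

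Markers of the midgut and other tissues were set beside these results. Of 7 measured midgut markers, *mex1*, an enterocyte membrane protein gene, was 4.61, 4.87 and 7.64 in the Cambridge females, and it was the only one 1 or more higher in replicate 3 (median gap 0.75). *MtnA*, a metallothionein gene, read 10.51, 11.25 and 11.66, and the progenitor marker *esg* read 2.79, 2.78 and 2.84. The summed midgut list, as a mean log2 level relative to the mean of the 10 groups, was -0.69, -0.56 and 0.12 in the Cambridge females, and -0.60, -0.55 and -0.52 in the Glasgow females. All other arrays lay between -0.32 and 0.64. These were the 5 lowest arrays for midgut markers, and 4 of them were among the 5 lowest for the trypsin list, where Cambridge male replicate 1 took the place of Glasgow female replicate 2. The list mean drew unevenly on its genes. Without Cambridge female replicate 3, only *mex1* was called lower in Cambridge females (-2.52), against 1.36% of probe sets. *MtnA* differed there by -0.73, *esg* by 0.03 and *pros* by 0.32. Only *MtnA* was called lower in Glasgow females (-1.16), against 3.54% of probe sets. The part of midgut tissue in the trypsin result was not tested.

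Several markers outside the gut moved with Glasgow females. The eye markers *Arr1*, *Arr2* and *trp*, all of the phototransduction cascade, were called lower in Glasgow females, 3 of 3 with all arrays, against 2.96% of probe sets. With all arrays 1 of 5 haemocyte and 1 of 7 midgut markers were called lower too, and no fat body, testis, accessory gland, ovary or yolk marker was. The eye list read -1.98 to -2.42 in Glasgow females, against -1.37 to 1.26 in all other arrays. Of 3 muscle markers, *Act88F*, *up* and *TpnC73F*, only *up* was called lower with all arrays (-2.16, adjusted p = 0.000242) and *TpnC73F* also without Cambridge female replicate 3 (-0.97, adjusted p = 0.00429), and the list read -1.10 to -2.57 in Glasgow females. The same list read -2.49 in Cambridge female replicate 1 and -1.36 in Antigua female replicate 3, which was also the lowest Antigua female for *alphaTry*, *betaTry*, *epsilonTry*, *thetaTry*, *etaTry*, *iotaTry*, *lambdaTry* and *zetaTry*. Their part in the trypsin values was not tested.

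**Figure D4:**
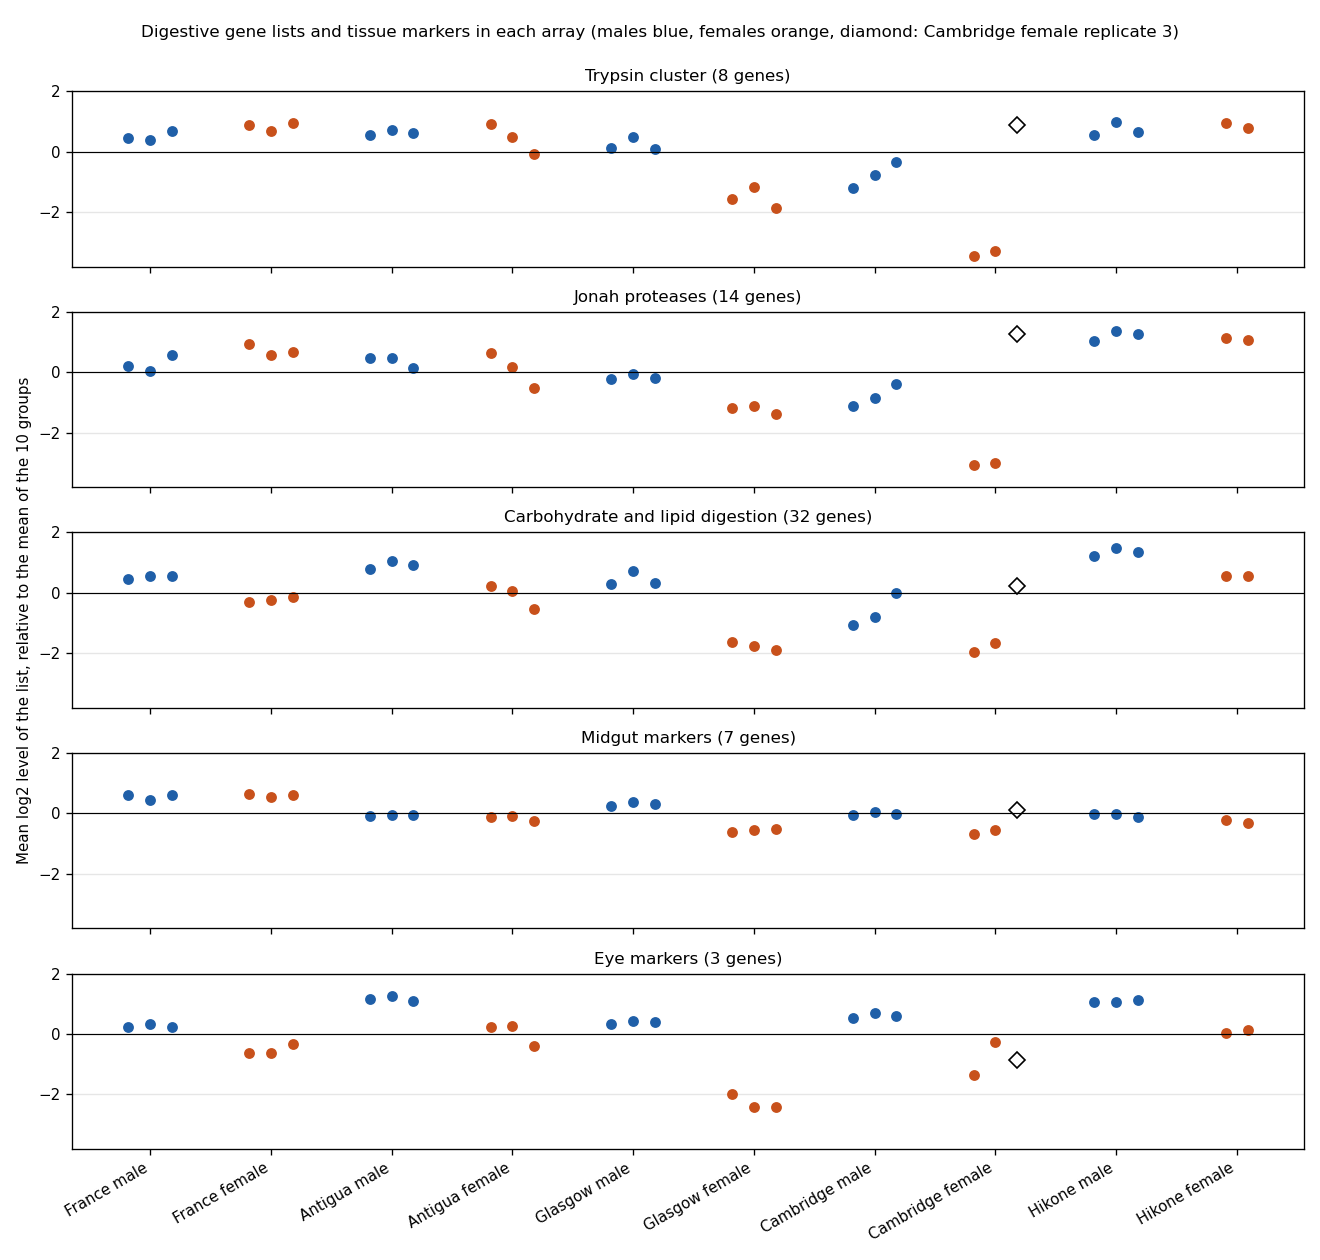
Mean log2 level of 5 gene lists in each array, relative to the mean of the 10 groups, with males in blue left of females in orange within each strain and Cambridge female replicate 3 as a diamond. Trypsins, Jonah proteases and genes for carbohydrate and lipid digestion were lowest in Cambridge female replicates 1 and 2 or in Glasgow females, and the eye markers were lowest in Glasgow females.

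Markers of other tissues were also compared among the Cambridge females. None of 3 fat body (*Lsp2*, *Fbp1* and *Fbp2*), 3 eye or 8 ovary and yolk markers was 1 or more apart between replicate 3 and the mean of the others. Replicates 1 and 2 themselves differed in some lists, which read -1.37, -0.27 and -0.85 for eye markers, -1.17, -0.19 and -0.97 for fat body markers and -2.49, -0.01 and -0.55 for muscle markers in replicates 1, 2 and 3. The 5 haemocyte markers were *Hml*, *NimC1*, *PPO1*, *PPO2* and *Pxn*, of which *Hml* was higher (5.33, 5.31 and 6.53). Of 7 testis markers 1 was, and of 3 muscle markers *Act88F* was (6.80, 12.31 and 12.09), with replicate 1 low rather than replicate 3 high. *Pxn* was called among strains in females (adjusted p = 2.74e-06) and in males (7.41e-12) by the F tests without replicate 3. Of 6 accessory gland markers, *Acp95EF* (1.95, 1.64 and 5.94) and *Acp62F* (3.99, 3.48 and 5.05) were higher in replicate 3, while *SP* read 1.25, 1.24 and 1.26 in the same arrays. In the males of all strains *Acp95EF* averaged 13.24 to 13.77. The part of these markers in the trypsin gap was not tested.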

How the data were processed

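The 29 arrays (Affymetrix Drosophila Genome 1) were used as deposited: log2 expression values that the authors had made from probe intensities with GCRMA, which adjusts background by GC content, quantile normalises across arrays and summarises probe sets. GCRMA's version is not given in the sources used here. Genes were named from the platform annotation. The 44 control probe sets were dropped, leaving 13966. Because arrays were normalised together, values are relative, and levels near the low end depend on the background model.

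One model with 10 group means was fitted with limma 3.58.1 (R 4.3.3), and p-values were Bonferroni adjusted over all 13966 probe sets with a threshold of 0.01. Contrasts were males minus females, 1 strain minus the mean of the others of its sex, and Glasgow minus Cambridge, with F tests for strain and interaction. Errors after ± are SE from limma, or SD where stated. The step was tested on simulated data. P-values measure the spread between replicate groups of flies. Members and lists were chosen with earlier results of these data known. Outside the cluster, lists of 5 or fewer genes were named whole, and longer digestive and regulator lists by up to 4 called genes with the largest F. Longer marker lists were named in part. *CG13202*, *sha*, *kappaTry*, *Cyp12d1-d* and the genes given to show the Cambridge female gap were named after their values were seen. Alternatives were Benjamini-Hochberg adjustment, other normalisations, a filter on dim probe sets, other variance settings, fits by sex, a replicate block and leaving out arrays.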

Additional observations from a re-analysis of the deposited data

Results flagged for a closer look

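The sex difference of 3 trypsins depended on strain in the fit without Cambridge female replicate 3, by the interaction of sex and strain in limma. The Bonferroni-adjusted p was 1.71e-08 for *betaTry*, 5.08e-05 for *alphaTry* and 0.000858 for *epsilonTry*. In that fit the male minus female difference of *betaTry* was 6.76 in Cambridge and 2.46 in Glasgow, against -0.06 in France, 0.23 in Antigua and 0.14 in Hikone. *alphaTry* differed by 3.37 in Cambridge and 2.07 in Glasgow, and *epsilonTry* by 3.48 in Cambridge and -0.82 in France. With all arrays none of the 3 was called (unadjusted p of 0.11 to 0.166 by the same F test), and the cause of the array's distance was not tested. That array was set apart on values that include these genes, so the calls partly follow from leaving it out. Groups held 2 or 3 arrays, and single arrays were not tested as outliers.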

How the results depend on the processing

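With all arrays, no trypsin was called between the sexes, within a strain, among strains, by the interaction or between Glasgow and Cambridge, and 1 call was made of a strain against the others. Leaving out single arrays gave 0 to 2 members for sex, 0 to 5 calls of sex within a strain, 0 to 8 members for strain averaged over sex, 0 to 7 for strain in females, 0 to 1 in males, 0 to 3 for the interaction, 0 to 21 calls of a strain against the others and 0 to 2 of Glasgow against Cambridge. Every highest count came without Cambridge female replicate 3. With Benjamini-Hochberg at 0.05 the counts were, in the same order, 2, 8, 8, 8, 2, 1, 23 and 2. Of all probe sets, 85% were then called for sex, 85.3% for strain averaged over sex and 39.7% for the interaction. Among strains it was 65.3% in females and 74.3% in males. By single contrast, 50.3% to 72.4% were called for sex within a strain and 5.38% to 56.2% for a strain against the others. For Glasgow against Cambridge it was 19.2% in males and 16% in females. Leaving out France female 3, Cambridge female 3 and Cambridge male 1 together, a choice made after seeing the data, gave 2, 5, 6, 6, 1, 3, 17 and 2. There 46.7% of all probe sets were called for sex, 12% for strain averaged over sex and 2.65% for the interaction. Among strains it was 8.51% in females and 7.96% in males. Single contrasts took 20.6% to 33.9% (sex within a strain), 1.5% to 6.29% (a strain against the others) and 1.65% to 2.45% (Glasgow against Cambridge).

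The call of *zetaTry* in Glasgow females was lost with quantile normalisation repeated (0 calls, -1.76, adjusted p = 0.0196), without Glasgow female replicate 1 (adjusted p = 0.191) or 3 (0.067), without Hikone female 1 (0.0121) or 2 (0.011), and with the 3 arrays left out (0.0105). In fits by sex the single call was *betaTry* in Cambridge males (-2.53, adjusted p = 0.000547). A filter on dim probe sets gave 1 member for strain averaged over sex, *zetaTry* (adjusted p = 0.00846). Median centring, other variance settings, fits by sex and the replicate block left each count as it was, at 0 or, for a strain against the others, 1. Arrays were not treated as paired by replicate number: mean r over different groups was -0.004 for the same number and 0.002 for different numbers, and 6 of 14 male and female pairs of 1 strain had r over 0.1, the highest in Cambridge replicates 1 (0.429) and 3 (0.42). *zetaTry* had an adjusted p of 0.00368 with the replicate block. The difference of *zetaTry* in Glasgow females, the only one called with all arrays, kept its sign in every setting. Sign changes of differences not called with all arrays were not counted. GCRMA values near the low end limit how far the folds of the lowest arrays can be read.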
